A study of Mus musculus with 8 samples.

Results

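The TNF receptor 1 complex I genes described here encode the receptor, its adaptors, and the enzymes that add or remove ubiquitin on the complex. The set holds 10 genes chosen by symbol, namely Tnfrsf1a, Tradd, Traf2, Birc2, Birc3, Cyld, Tnfaip3, Sharpin, Rbck1 and Rnf31, of 20976 genes in the expression table. All 10 passed the filter on low values and were tested among 12910 genes. When TNF binds its receptor, TRADD and RIPK1 are recruited to the cytoplasmic death domain, and TRAF2 brings in the ligases cIAP1 and cIAP2, which build ubiquitin chains on RIPK1 and on themselves. The linear ubiquitin chain assembly complex (SHARPIN, HOIL-1 and HOIP) adds linear chains, which anchor the TAK1 and IKK kinases that activate NF-kB, while CYLD trims chains and A20 edits them. In cells that lose these chains RIPK1 can pass into complex II, from which caspase-8 drives apoptosis or RIPK3 and MLKL drive necroptosis. In muscle, TNF is known for its effects on myoblast differentiation and for its rise in dystrophic and injured tissue.

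The libraries came from muscle stem cells, the satellite cells that rebuild muscle fibres, isolated by FACS from Chd4LoxP/LoxP mice and grown for a short time in serum with bFGF. The Cre cells received an adenovirus with CRE recombinase, which removes exons 12 to 21 of Chd4, the motor subunit of the chromatin remodeller NuRD, and the control cells received AdenoGFP. Each group had 4 libraries from 4 mice, and every mouse in both groups carried the loxP alleles. Neither the age of the mice nor the time after infection was stated by the labels. No group of cells with an intact Chd4 gene received Cre, so an effect of Cre itself and one of the Chd4 deletion cannot be told apart. RNA was measured from whole cultures, so fewer cells of a type and less RNA per cell cannot be told apart.

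The deposited table gives each gene's reads after a scaling of the libraries and rounding to whole numbers, called normalised reads here. Scaled totals ran from 28402534 to 28876348 in Cre and from 27897860 to 28485789 in GFP, and the estimated original depth was 26.3 to 30.4 M reads in Cre and 23.2 to 38.0 M in GFP. Chd4 averaged 4828 ± 787 normalised reads in the Cre libraries and 17636 ± 1848 in the GFP libraries (SD, n = 4 each), a log2 change of -1.88 (limma, adjusted p = 0.00328). Of 8 muscle stem cell and myoblast markers 7 passed the filter, with Calcr at 9 or fewer normalised reads in every library. The sum of the list was 154139 to 162192 in Cre and 132608 to 152095 in GFP, most of it from Chrna1 and Myod1. In a model paired by replicate number these 2 of 7 were called higher, against 22.2% of all genes tested. Pax7 and Myf5 were called lower, where 21.7% of all genes were. Cdh15, Itga7 and Sdc4 had log2 changes of 0.014, 0.021 and -0.027 and were called in neither model. Pax7 averaged 5432 ± 870 in the Cre libraries and 5967 ± 651 in the GFP libraries (SD, n = 4 each; paired adjusted p = 0.0354, unpaired 0.641). Myf5 stood at 347, 334, 298 and 1262 in Cre libraries 1 to 4, against 575, 453, 444 and 1816 in GFP libraries 1 to 4 (paired adjusted p = 0.000124, unpaired 0.694). Of the markers of other cells, 1 of 7 blood, 2 of 5 endothelial, 4 of 5 pericyte and smooth muscle, 3 of 5 fibro-adipogenic and 1 of 4 Schwann genes passed the filter.

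Across the 10 genes, a model of Cre against GFP without regard to replicate number called 0 at an adjusted p of 0.05, where 1.08% of all genes tested were called. In the same model 2 of the 10 had an unadjusted p under 0.05, Birc3 higher and Traf2 lower, against 16.7% of all genes, and limma-voom on the same libraries also called 0. Libraries of equal number deviated together in the data, so a paired model, in which that number is a block, is also given. The paired model called 4 of the 10 (40.0%), against 43.9% of all genes tested, so the share is near the background. Birc3 rose, where 22.2% of all genes were called higher, and Traf2, Rbck1 and Rnf31 fell, where 21.7% were called lower. The median log2 change of the 10 genes was 0.0017, and that of all genes tested was -0.00081. Their median absolute log2 change was 0.13, against 0.17 for all genes. With the libraries rescaled by their upper quartile the paired model called 2 higher and 1 lower, in place of 1 higher and 3 lower. The model with no block treats the 8 libraries as independent, and the labels do not state that equal numbers share a mouse.

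**Figure D1:**
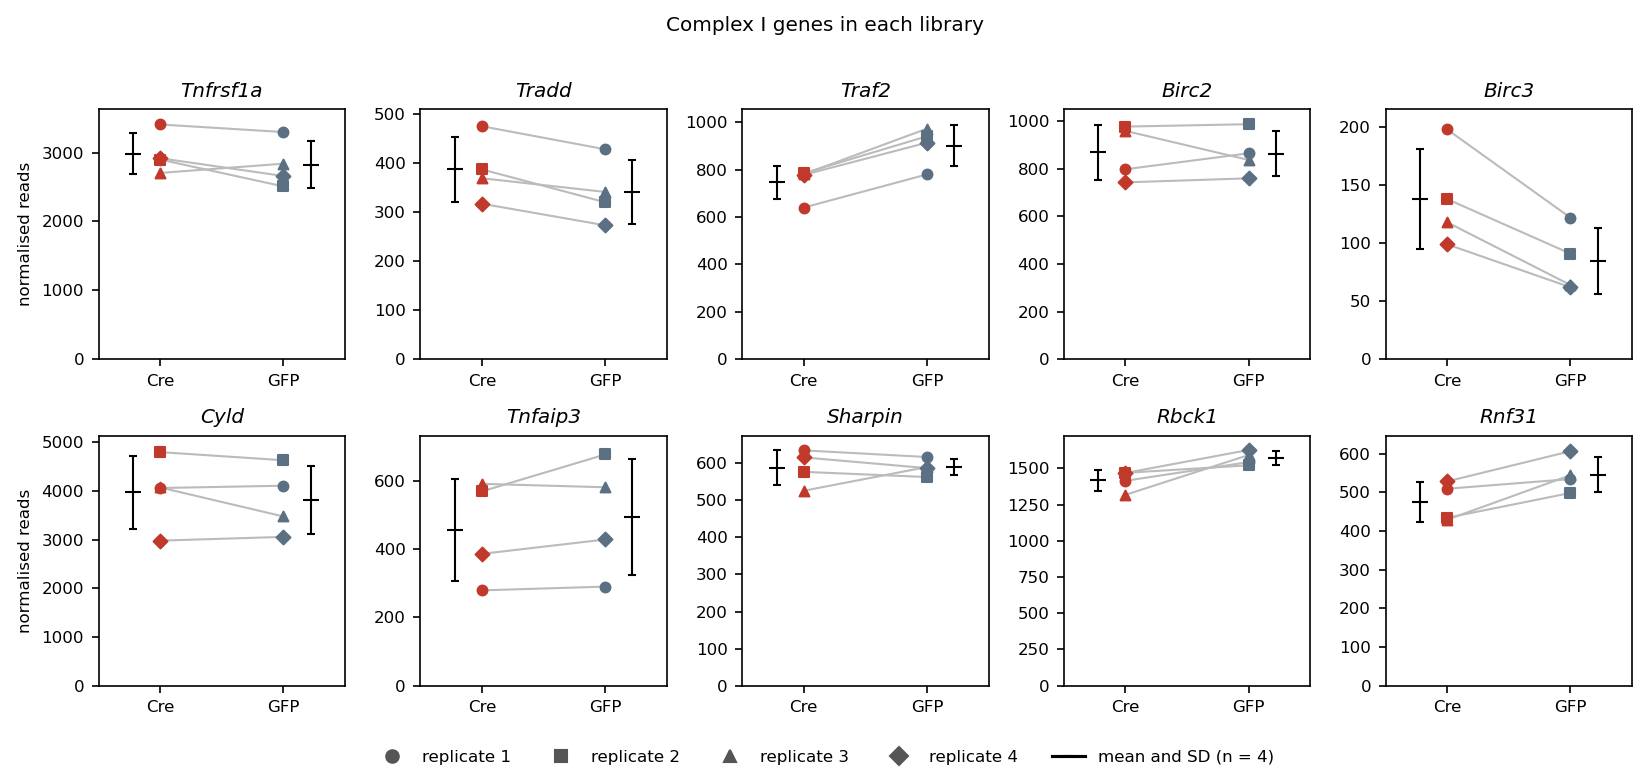
Normalised reads of each complex I gene (y axis, linear, from 0) in Cre and GFP libraries. Points are libraries, symbols mark the replicate number, thin lines join equal numbers, and bars give the mean and SD (n = 4). The lines of Birc3 all point the same way, with Cre above GFP, those of Traf2, Rbck1 and Rnf31 have Cre below GFP, and those of Cyld and Birc2 point both ways.

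**Figure D2:**
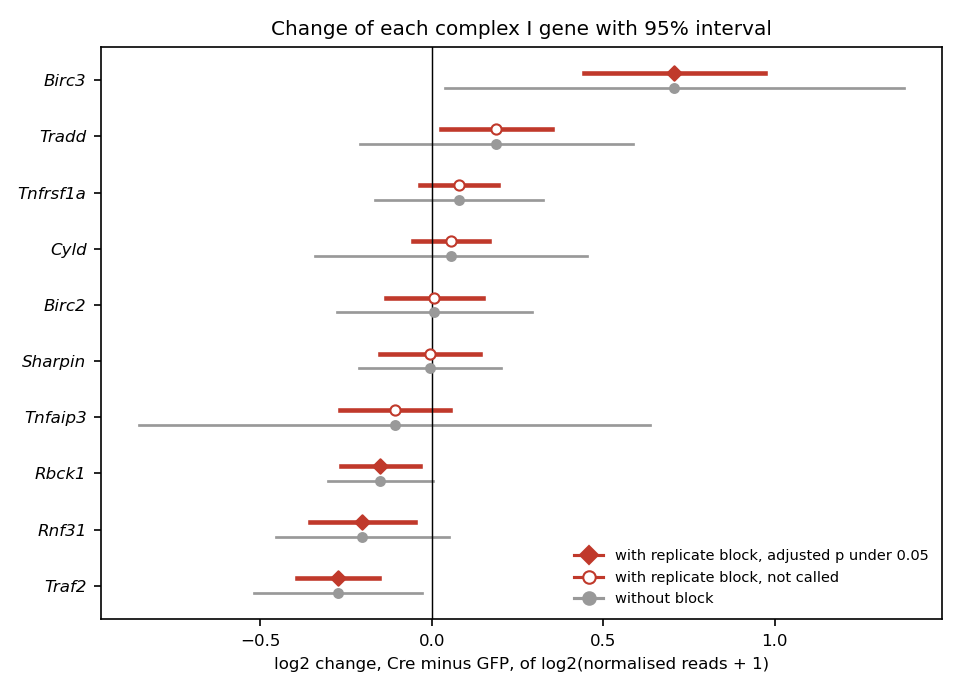
Log2 change of each complex I gene, Cre minus GFP, on the x axis, with 95% intervals from the model without the block and from the paired model. Filled diamonds mark genes called in the paired model. Birc3 stands at 0.71, Traf2 at -0.27, Rnf31 at -0.20 and Rbck1 at -0.15, and all intervals without the block are wider than the paired ones.

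Of the receptor and adaptor genes, Traf2 was lower in Cre cells in every pair, while Tnfrsf1a and Tradd did not pass either test. Traf2, on the minus strand of chr2:25517982-25546940 (GRCm38), encodes the RING adaptor that carries the cIAP ligases to the receptor. It had 640, 785, 781 and 778 normalised reads in Cre libraries 1 to 4, against 780, 941, 973 and 914 in GFP libraries 1 to 4. Replicate 1 was the lowest in both groups, and the groups overlapped only because Cre libraries 2 and 3 lay just above GFP library 1. The Cre value was 0.821, 0.834, 0.803 and 0.851 of the GFP value in pairs 1 to 4. Traf2 averaged 746 ± 70.7 normalised reads in the Cre libraries and 902 ± 84.8 in the GFP libraries (SD, n = 4 each), which puts Cre at 82.7% of GFP. The log2 change was -0.27, with an SE of 0.107 without the block (limma, adjusted p = 0.256) and 0.0539 with it (adjusted p = 0.00229). The paired 95% interval of the Cre to GFP fold ran from 0.761 to 0.899, and the paired call held in 11 of 11 alternatives, with adjusted p between 0.00111 and 0.0120.

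Tradd, on the minus strand of chr8:105258286-105264609, encodes the death-domain adaptor that links the receptor to TRAF2 and RIPK1. It had 475, 387, 369 and 317 normalised reads in Cre libraries 1 to 4, against 428, 320, 341 and 273 in GFP libraries 1 to 4. Each Cre library exceeded the GFP library of its number, but replicate 1 of GFP lay above 3 of the Cre libraries, so the groups overlapped. On the log2 scale Tradd changed by 0.19, with adjusted p of 0.647 without the block and 0.0593 in the paired model, just above the threshold. Rescaling by the upper quartile gave an adjusted p of 0.0289, and the other 10 paired alternatives gave no call for Tradd.

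Tnfrsf1a, on the plus strand of chr6:125349723-125362484 and thus on the chromosome of Chd4 itself, encodes TNF receptor 1. It had 3407, 2898, 2704 and 2917 normalised reads in Cre libraries 1 to 4, against 3297, 2508, 2838 and 2659 in GFP libraries 1 to 4. The groups overlapped broadly, replicate 1 was the highest in both, and pair 3 ran against the other 3. The log2 change was 0.080 (adjusted p = 0.771 without the block, 0.235 with it), and the paired interval of the fold was 0.977 to 1.14.

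The ratio of Traf2 to Tradd, computed within a library, was 1.35, 2.03, 2.12 and 2.45 in Cre libraries 1 to 4, against 1.82, 2.94, 2.85 and 3.35 in GFP libraries 1 to 4. Its mean was 1.99 ± 0.464 in the Cre libraries and 2.74 ± 0.649 in the GFP libraries (SD, n = 4 each). Within pairs the Cre ratio was 0.739, 0.690, 0.742 and 0.733 of the GFP ratio, a narrow range although the ratio itself differed strongly between replicate 1 and the rest in each group. Ratios were described and not tested. Only that of Birc3 to Birc2, given below, was planned, and it was chosen with earlier results of these data known.

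Sequences just upstream of the start sites are shown for the genes that passed the paired test, so that the promoters of genes that moved in opposite directions can be set side by side. They come from RefSeq on GRCm38.p6 and span 250 bases before to 50 after the start. Of the 10 genes 8 had at least 1 such window, and Birc2, Rbck1 and Tnfaip3 had 2, of which the upstream one is shown. Capitals mark GC boxes (GGGCGG on either strand) and kappaB sites, the binding motif of NF-kB. The Traf2 window, on the minus strand of chr2:25546891-25547190, has a GC content of 64.0%, 28 CpG dinucleotides and a GC box 13 bases after the start, and no kappaB motif.
Traf2: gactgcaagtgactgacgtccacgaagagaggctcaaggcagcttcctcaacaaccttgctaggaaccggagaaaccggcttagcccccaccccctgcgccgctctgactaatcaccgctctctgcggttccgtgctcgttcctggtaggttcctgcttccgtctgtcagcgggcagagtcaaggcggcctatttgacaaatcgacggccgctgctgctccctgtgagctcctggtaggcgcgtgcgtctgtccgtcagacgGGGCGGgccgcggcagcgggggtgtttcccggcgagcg
A GC box was found in 35.7% and a kappaB motif in 8.46% of 32851 RefSeq windows of the same length. The median GC content of all windows was 52.7%. A match is a description of letters only.

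Of the IAP ligases, Birc3 was higher in Cre cells in every pair, and its neighbour and paralogue Birc2 was not. Birc3, on the minus strand of chr9:7848699-7873024, encodes cIAP2, a RING ubiquitin ligase and itself a known NF-kB target. It had 198, 138, 118 and 99 normalised reads in Cre libraries 1 to 4, against 122, 91, 64 and 62 in GFP libraries 1 to 4. Replicate 1 was the highest in both groups, and GFP library 1 lay above Cre libraries 3 and 4, so the groups overlapped. The Cre value was 1.62, 1.52, 1.84 and 1.60 times the GFP value in pairs 1 to 4. Birc3 averaged 138 ± 42.9 normalised reads in the Cre libraries and 84.8 ± 28.1 in the GFP libraries (SD, n = 4 each), or 163% of GFP. The log2 change was 0.71, with an SE of 0.292 without the block (limma, adjusted p = 0.279) and 0.119 with it (adjusted p = 0.000899). The paired interval of the fold was 1.36 to 1.96. The paired call held in 10 of 10 alternatives that kept Birc3, with adjusted p between 0.000462 and 0.00727, and the filter at 5 CPM removed the gene. By size of increase Birc3 ranked 640 of 12910 genes.

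Birc3 was the gene of the set with the fewest reads, an estimated 57.1 to 203 original reads per library, and counting error alone gives its log2 change an SE of 0.104. Of the distinct stretches of 50 bases in its transcripts 7.56% also occur in other genes, 65 of them in Birc2 and others in the pseudogene Gm7019. The gene of origin is thus uncertain for reads from these stretches, and no values of Gm7019 were available here.

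Birc2, on the minus strand of chr9:7818227-7837064, encodes cIAP1, the other TRAF2-bound ligase. It had 797, 976, 958 and 742 normalised reads in Cre libraries 1 to 4, against 864, 986, 836 and 759 in GFP libraries 1 to 4. The groups covered nearly the same range, and pair 3 was higher in Cre while the other 3 pairs were lower. Its log2 change was 0.0082 (adjusted p = 0.984 without the block, 0.930 with it), and turned to -0.013 with equal library totals and -0.012 with voom. The paired interval of the fold was 0.912 to 1.11.

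The ratio of Birc3 to Birc2 was 0.248, 0.141, 0.123 and 0.133 in Cre libraries 1 to 4, against 0.141, 0.0923, 0.0766 and 0.0817 in GFP libraries 1 to 4. Within pairs the Cre ratio was 1.76, 1.53, 1.61 and 1.63 times the GFP ratio. Cre library 1 stood well above the other 3 Cre libraries, and GFP library 1 lay within the Cre range, so the groups overlapped in the ratio too. The mean ratio was 0.162 ± 0.0584 in the Cre libraries and 0.0979 ± 0.0296 in the GFP libraries (SD, n = 4 each).

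The windows of both paralogues are shown because the genes lie next to each other on the same strand. Birc3 passed the paired test and Birc2 did not, but a difference between them was not tested. The Birc3 window, on the minus strand of chr9:7873121-7873420, has a GC content of 43.0% and 7 CpG dinucleotides. The upstream Birc2 window, on the minus strand of chr9:7837008-7837307, has a GC content of 67.0% and 34 CpG dinucleotides.
Birc3: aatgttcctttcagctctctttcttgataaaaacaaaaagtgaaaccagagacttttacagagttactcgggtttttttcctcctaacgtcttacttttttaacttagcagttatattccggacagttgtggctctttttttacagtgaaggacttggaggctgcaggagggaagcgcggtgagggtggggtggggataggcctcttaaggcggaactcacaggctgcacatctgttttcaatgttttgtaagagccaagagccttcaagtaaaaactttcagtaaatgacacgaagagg
Birc2: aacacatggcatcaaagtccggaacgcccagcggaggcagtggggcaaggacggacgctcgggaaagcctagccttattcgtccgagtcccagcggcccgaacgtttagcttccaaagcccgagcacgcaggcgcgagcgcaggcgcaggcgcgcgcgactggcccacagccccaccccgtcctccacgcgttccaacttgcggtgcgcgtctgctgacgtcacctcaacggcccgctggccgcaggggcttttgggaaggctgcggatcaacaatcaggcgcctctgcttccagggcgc
Birc3 is poor and Birc2 rich in CpG, relative to the other windows shown. Neither window shown holds a kappaB motif, a GC box, the core GAAANNGAAA of the interferon response element (3.44% of all windows) or TATAAA (13.6%), searched on both strands. This says only that these letters are not in these windows. The downstream Birc2 window, chr9:7836757-7837056, has a GC content of 60.0%, 21 CpG dinucleotides and 2 GC boxes, 133 and 85 bases before its start, and none of the other motifs.

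**Figure D3:**
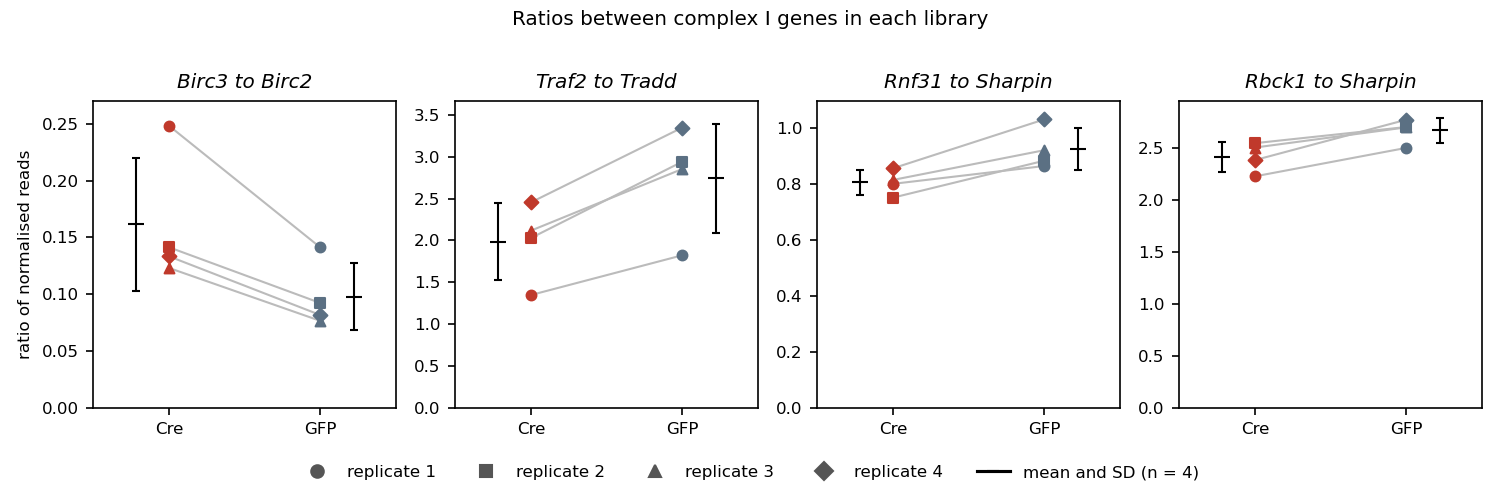
Ratios of normalised reads between complex I genes in each library (y axis, linear, from 0), Cre and GFP. Points are libraries, thin lines join equal replicate numbers, and bars give the mean and SD (n = 4). The ratio of Birc3 to Birc2 is higher in Cre in 4 of 4 pairs, the other 3 ratios are lower in Cre in 4 of 4 pairs, and the groups are separate in the ratio of Rnf31 to Sharpin.

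Of the linear ubiquitin chain assembly complex, the genes of HOIL-1 and of the catalytic subunit HOIP were lower in Cre cells in every pair, and Sharpin was not. Rbck1, on the minus strand of chr2:152316334-152332653, encodes HOIL-1. It had 1414, 1469, 1317 and 1468 normalised reads in Cre libraries 1 to 4, against 1543, 1521, 1592 and 1627 in GFP libraries 1 to 4. All 4 Cre libraries lay below all 4 GFP libraries, which made Rbck1 the only gene of the 10 whose groups did not overlap, against 10.6% of all genes tested. Rbck1 averaged 1417 ± 71.4 normalised reads in the Cre libraries and 1571 ± 47.8 in the GFP libraries (SD, n = 4 each), or 90.2% of GFP. The log2 change was -0.15 (adjusted p = 0.310 without the block, 0.0371 with it), and the paired interval of the fold was 0.833 to 0.976. The paired call was lost in 5 of 11 alternatives. Adjusted p was 0.0564 with no filter, 0.101 after upper quartile rescaling, and 0.0624, 0.128 and 0.0967 without pair 1, 3 or 4.

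Rnf31, on the plus strand of chr14:55591708-55603693, encodes HOIP, which joins the linear chains. It had 509, 434, 429 and 528 normalised reads in Cre libraries 1 to 4, against 534, 498, 544 and 606 in GFP libraries 1 to 4. Each Cre library lay below the GFP library of its number, with the smallest gap in pair 1, and Cre libraries 1 and 4 overlapped the GFP range. Rnf31 averaged 475 ± 50.9 normalised reads in the Cre libraries and 546 ± 44.9 in the GFP libraries (SD, n = 4 each), or 87.1% of GFP. On the log2 scale the change was -0.20 (adjusted p = 0.407 without the block, 0.0364 with it), with a paired interval of the fold of 0.782 to 0.967. The call was lost in 4 of 11 paired alternatives, with adjusted p of 0.0849 after upper quartile rescaling and 0.0925, 0.129 and 0.101 without pair 2, 3 or 4. A stretch of 123 exonic bases, 2.15% of its exonic length, is shared with Irf9 on the same strand.

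Sharpin, on the minus strand of chr15:76347040-76351111, encodes the adaptor subunit that stabilises the complex. It had 635, 577, 526 and 616 normalised reads in Cre libraries 1 to 4, against 617, 563, 590 and 587 in GFP libraries 1 to 4. The Cre libraries spread to both sides of the GFP libraries, with pair 3 lower in Cre and the other 3 pairs higher. Its log2 change was -0.0048 (adjusted p = 0.987 without the block, 0.960 with it), and turned to 0.031 after upper quartile rescaling. The paired interval of the fold was 0.901 to 1.10.

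Set against Sharpin within each library, Rnf31 stood at 0.802, 0.752, 0.816 and 0.857 in Cre libraries 1 to 4, against 0.865, 0.885, 0.922 and 1.03 in GFP libraries 1 to 4. All 4 Cre ratios lay below all 4 GFP ratios, and no other ratio given here had separate groups. The share of separate ratios over all pairs of genes was not computed. The ratio of Rbck1 to Sharpin was 2.23, 2.55, 2.50 and 2.38 in Cre libraries 1 to 4, against 2.50, 2.70, 2.70 and 2.77 in GFP libraries 1 to 4. It was lower in Cre in every pair, with an overlap between Cre libraries 2 and 3 and GFP library 1.

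The windows of Rbck1 and Rnf31 are shown as those of the subunit genes that passed the paired test. The upstream Rbck1 window, on the minus strand of chr2:152332590-152332889, has a GC content of 60.3% and 15 CpG dinucleotides. The Rnf31 window, on the plus strand of chr14:55591492-55591791, has a GC content of 60.0% and 17 CpG dinucleotides.
Rbck1: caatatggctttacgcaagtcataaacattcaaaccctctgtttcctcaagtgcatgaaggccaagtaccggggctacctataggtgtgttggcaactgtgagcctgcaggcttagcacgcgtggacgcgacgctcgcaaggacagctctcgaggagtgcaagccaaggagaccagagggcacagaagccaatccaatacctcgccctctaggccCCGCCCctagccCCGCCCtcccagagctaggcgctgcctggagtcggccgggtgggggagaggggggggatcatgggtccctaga
Rnf31: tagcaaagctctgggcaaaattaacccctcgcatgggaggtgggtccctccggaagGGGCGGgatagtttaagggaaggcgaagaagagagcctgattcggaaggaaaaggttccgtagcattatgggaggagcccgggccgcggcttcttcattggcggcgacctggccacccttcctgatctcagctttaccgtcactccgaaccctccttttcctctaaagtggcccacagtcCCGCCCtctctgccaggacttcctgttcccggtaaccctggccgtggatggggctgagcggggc
Each holds 2 GC boxes, and neither of the windows shown holds a kappaB motif, GAAANNGAAA or TATAAA. The downstream Rbck1 window, chr2:152332376-152332675, holds 3 GC boxes and 1 match to GAAANNGAAA, 21 bases before its start.

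Of the deubiquitinase genes, Cyld and Tnfaip3 did not pass either test. Cyld, on the plus strand of chr8:88697028-88751945, encodes the enzyme that cleaves linear and other ubiquitin chains on the complex. It had 4059, 4796, 4070 and 2978 normalised reads in Cre libraries 1 to 4, against 4106, 4629, 3474 and 3055 in GFP libraries 1 to 4. Pairs 2 and 3 were higher in Cre and pairs 1 and 4 lower, replicate 4 was the lowest and replicate 2 the highest in both groups, and the groups overlapped. Its log2 change was 0.057 (adjusted p = 0.913 without the block, 0.397 with it), and the paired interval of the fold was 0.962 to 1.12.

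Tnfaip3, on the minus strand of chr10:19000910-19015410, encodes A20, which removes some ubiquitin chains and adds others, and is a known NF-kB feedback gene. It had 279, 569, 591 and 386 normalised reads in Cre libraries 1 to 4, against 290, 677, 581 and 428 in GFP libraries 1 to 4. Replicate 1 was the lowest in both groups, replicates 2 and 3 were the highest, and equal numbers lay close to each other. On the log2 scale the change was -0.11 (adjusted p = 0.913 without the block, 0.256 with it), with a paired interval of the fold of 0.831 to 1.04. Tnfaip3 had the greatest gain in precision from the pairing among the 10 genes, with an SE 4.50 times as large without the block as with it. Its ratio to Cyld was 0.116 ± 0.0331 in the Cre libraries and 0.131 ± 0.0419 in the GFP libraries (SD, n = 4 each), and lower in Cre in 4 of 4 pairs.

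The upstream Tnfaip3 window is also shown, as one with kappaB motifs, and a link between motifs and reads was not tested. It lies on the minus strand of chr10:19015361-19015660, has a GC content of 56.7% and 22 CpG dinucleotides, and holds kappaB motifs 125 and 12 bases before the start, 3 GC boxes, of which 2 share a base, and 1 TATAAA. The first kappaB motif reads on both strands and was counted once.
Tnfaip3: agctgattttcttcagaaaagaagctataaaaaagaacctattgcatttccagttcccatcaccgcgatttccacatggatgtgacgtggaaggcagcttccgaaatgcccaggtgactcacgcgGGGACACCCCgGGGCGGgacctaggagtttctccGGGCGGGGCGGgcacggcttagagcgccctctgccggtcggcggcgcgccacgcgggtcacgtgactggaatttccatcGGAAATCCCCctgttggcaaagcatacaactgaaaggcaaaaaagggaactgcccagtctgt
The downstream Tnfaip3 window, chr10:19011914-19012213, has a GC content of 47.0% and 6 CpG dinucleotides and holds none of the motifs. The Cyld window holds 1 kappaB motif, 155 bases before the start.

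**Figure D4:**
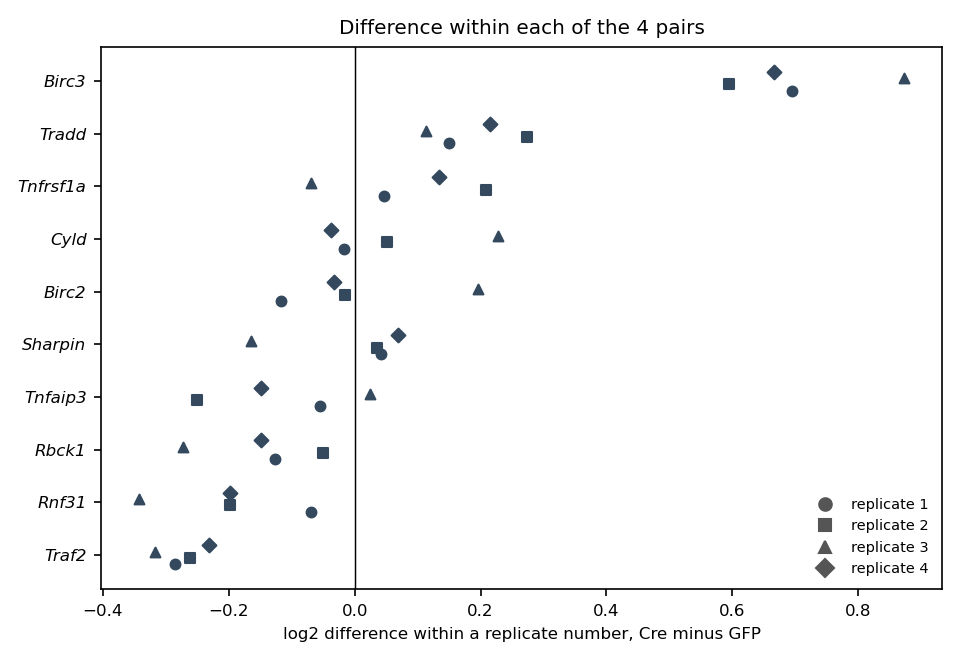
Log2 difference within each replicate number, Cre minus GFP, on the x axis, for each complex I gene. The 4 points of Birc3 lie between 0.60 and 0.87 and those of Traf2 between -0.32 and -0.23, while the points of Birc2, Cyld, Sharpin, Tnfrsf1a and Tnfaip3 fall on both sides of 0.

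Within the set, 5 genes went one way in all 4 pairs, 2 higher (Birc3 and Tradd) and 3 lower (Traf2, Rbck1 and Rnf31), where 55.5% of all genes tested went one way. Pair 3 gave the greatest absolute difference for 7 of the 10 genes and pair 2 for the other 3. Over all genes tested pair 3 did so for 27.3% and pair 2 for 17.0%. Without pair 3 or without pair 4 the paired model called 2 of the 10 in place of 4.

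Per kilobase of exon, Tnfrsf1a had the highest level of the 10 genes, at 1151 ± 116 normalised reads in the Cre libraries and 1091 ± 132 in the GFP libraries (SD, n = 4 each). Birc3 had the lowest, at 27.6 ± 8.56 in Cre and 16.9 ± 5.62 in GFP. In Cre the order from the top was Tnfrsf1a, Cyld, Rbck1, Tradd, Birc2, Sharpin, Traf2, Rnf31, Tnfaip3 and Birc3, with the ranges of neighbours overlapping except between Tnfrsf1a and Cyld, Rbck1 and Tradd, and Traf2 and Rnf31. In GFP the order was Tnfrsf1a, Rbck1, Cyld, Birc2, Tradd, Traf2, Sharpin, Rnf31, Tnfaip3 and Birc3. Neighbours in GFP overlapped except between Tnfrsf1a and Rbck1, Cyld and Birc2, Sharpin and Rnf31, and Tnfaip3 and Birc3. Traf2 stood at 146 ± 13.9 per kilobase in Cre and 177 ± 16.6 in GFP, and Rnf31 at 82.8 ± 8.87 in Cre and 95.1 ± 7.83 in GFP. Lengths are the union of annotated exons, retained introns included, so levels per kilobase are approximate.

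The genes whose pattern over the 8 libraries was most like that of Birc3 were Mgst2, Zdhhc20 and Kidins220, with Pearson r of 0.990, 0.988 and 0.986 on the log2 scale. Mgst2, a glutathione transferase of the membrane, had 241, 143, 92 and 58 normalised reads in Cre libraries 1 to 4, against 100, 46, 30 and 21 in GFP libraries 1 to 4. Zdhhc20, a palmitoyltransferase, had 5761, 5118, 4794 and 4767 in Cre, against 4956, 4513, 3819 and 3898 in GFP. All share with Birc3 a high replicate 1 in both groups, and 107 genes reached an r of 0.95 or more. The libraries share their replicate numbers, so the points are not independent.

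Of the other genes of the pathway, 48 of 57 listed passed the filter. The model without the block called 2 of the 48, Tbkbp1 and Icam1, both higher in Cre, and limma-voom without the block called the same 2. The paired model called 10 higher and 7 lower (35.4%), against the 43.9% of all genes, with a median log2 change of -0.00035. That split was 13 higher and 5 lower after upper quartile rescaling, and 8 higher and 9 lower with equal library totals.

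Among 14 kinases and adaptors of the complex, the paired model called 4 higher and 1 lower (35.7%, against 43.9% of all genes), with a median log2 change of 0.0070. The increase was greatest for Tbkbp1, an adaptor of the kinase TBK1, which had 150, 108, 110 and 152 normalised reads in Cre libraries 1 to 4, against 20, 14, 12 and 14 in GFP libraries 1 to 4. The groups were far apart, with a log2 change of 3.04 (limma, adjusted p = 0.00404 without the block, 2.3e-06 with it). Counting error alone gives this change an SE of 0.204, above the paired SE of 0.176, so the paired p may be too small. Ikbke, a kinase related to TBK1, had 273, 224, 225 and 221 normalised reads in Cre libraries 1 to 4, against 188, 150, 146 and 127 in GFP libraries 1 to 4. The Ikbke groups did not overlap, and its log2 change of 0.63 was called in the paired model (adjusted p = 0.000470) but not without the block (adjusted p = 0.103). Chuk, encoding the IKK alpha kinase, averaged 2928 ± 171 in the Cre libraries and 2602 ± 146 in the GFP libraries (SD, n = 4 each; paired adjusted p = 0.00754, unpaired 0.281). Tbk1 averaged 1446 ± 73.7 in Cre and 1300 ± 118 in GFP, and its paired adjusted p of 0.0434 rose above the threshold in 7 of 11 alternatives, to as much as 0.158. Tbk1 lost the call without any single pair, at adjusted p of 0.0534, 0.0505, 0.158 and 0.0980 without pairs 1 to 4.

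Ripk1, the kinase that receives the ubiquitin chains of the complex, had 1546, 962, 1080 and 1039 normalised reads in Cre libraries 1 to 4, against 1914, 1197, 1292 and 1190 in GFP libraries 1 to 4. Replicate 1 stood above the rest in both groups, and each Cre library lay below the GFP library of its number. On the log2 scale the change was -0.27 (adjusted p = 0.545 without the block, 0.00149 with it), close to that of Traf2. Of its exonic length 2.89% is shared with Serpinb6a on the opposite strand, which averaged 10184 normalised reads.

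Of 12 ubiquitin enzymes and ubiquitin-binding regulators tested, 2 rose in the paired model and 0 fell (16.7%, against 43.9% of all genes), and 0 were called without the block, where none had an unadjusted p under 0.05. Both risers are partners of A20, as are the products of Itch, Tnip1 and Tnip2 of the same list. These 3 genes had log2 changes of 0.042, -0.0026 and -0.033 and were called in neither model. Rnf11 averaged 8564 ± 1489 normalised reads in the Cre libraries and 7143 ± 1351 in the GFP libraries (SD, n = 4 each), a log2 change of 0.27 (paired adjusted p = 0.000751, unpaired 0.469). Tax1bp1 averaged 7499 ± 704 in Cre and 6827 ± 571 in GFP, a log2 change of 0.13 (paired adjusted p = 0.0157, unpaired 0.499). The Tax1bp1 call was lost without pair 1 (adjusted p = 0.0544) or without pair 2 (0.0676). The deubiquitinase gene Otud7b and the CYLD partner Spata2 each had a log2 change of 0.097, with paired adjusted p of 0.108 and 0.172.

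Of the ligands, the second receptor and the sheddase, Tnf and Lta fell under the filter and Ltb was not analysed here. Tnf read 1, 7, 8 and 1 in Cre libraries 1 to 4, in normalised reads, against 0 in each of the 4 GFP libraries. Among the 4 genes tested in this list 0 were called without the block, 0 of them at an unadjusted p under 0.05, and the paired calls were 0 higher and 1 lower (25.0%, against 43.9% of all genes). That gene, Tnfsf12, the ligand TWEAK, averaged 79.0 ± 21.7 in the Cre libraries and 103 ± 21.8 in the GFP libraries (SD, n = 4 each), a log2 change of -0.39 (paired adjusted p = 0.0465, unpaired 0.474). Its paired call was lost in 6 of 10 alternatives, among them each left-out pair, at adjusted p of 0.0943, 0.191, 0.0825 and 0.0559 without pairs 1 to 4, and 48.3% of its exonic length is shared with Tnfsfm13. The TWEAK receptor Tnfrsf12a, the second TNF receptor Tnfrsf1b and the TNF sheddase Adam17 had log2 changes of 0.018, -0.031 and 0.0086 and were called in neither model.

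In the arm by which TRAF2, TRAF3 and the cIAPs keep the kinase NIK low, the paired model called 0 higher and 1 lower of 4 (25.0%, against 43.9% of all genes). Map3k14, which encodes NIK, had 483, 752, 847 and 785 normalised reads in Cre libraries 1 to 4, against 617, 1032, 988 and 1021 in GFP libraries 1 to 4. It was lower in Cre in all 4 pairs, with replicate 1 the lowest in both groups as for Traf2. Its log2 change was -0.35 (adjusted p = 0.478 without the block, 0.000933 with it). Nfkb2 and Relb, the NF-kB subunits downstream of NIK, had log2 changes of -0.12 and 0.12, and Traf3 of 0.088, none called in either model.

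Of 6 genes of complex II and the necrosome, the paired model called 1 higher and 2 lower (3 of 6, against 43.9% of all genes), with a median log2 change of -0.14. The model without the block called 0, with Ripk3 and Fadd at an unadjusted p under 0.05, or 2 of 6 against 16.7% of all genes. Ripk3 was higher, with a log2 change of 1.51 (adjusted p = 0.0873 without the block, 3.9e-06 with it). Its partner Mlkl had a log2 change of 0.060 and was called in neither model. Fadd, the adaptor of caspase-8, averaged 231 ± 16.6 in the Cre libraries and 298 ± 45.6 in the GFP libraries (SD, n = 4 each), a log2 change of -0.35 (paired adjusted p = 0.00949, unpaired 0.267), and lost the paired call without pair 2 (adjusted p = 0.0531). Casp8 and its regulator Cflar had log2 changes of -0.17 and -0.10 and were called in neither model. Ripk1, given above, was the other gene called lower.

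Of 9 NF-kB feedback and target genes tested, the paired model called 3 higher and 3 lower (66.7%, against 43.9% of all genes), with a median log2 change of -0.022. Bcl3 was called higher close to the threshold, at a log2 change of 0.28 (limma, paired adjusted p = 0.0454, unpaired 0.784). Icam1, an adhesion molecule, had 35, 68, 44 and 70 normalised reads in Cre libraries 1 to 4, against 12, 13, 8 and 13 in GFP libraries 1 to 4. The groups did not overlap, and its log2 change was 2.11 (adjusted p = 0.0273 without the block, 8.5e-05 with it). Counting error alone gives an SE of 0.245, slightly above the paired SE of 0.240, so here too the paired p may be too small. Without any 1 of the 8 libraries the call without the block was lost, at adjusted p of up to 0.106, and the paired call held in 10 of 10 alternatives. Nfkbia, the inhibitor IkB alpha, averaged 832 ± 149 in the Cre libraries and 692 ± 93.8 in the GFP libraries (SD, n = 4 each; paired adjusted p = 0.0105, unpaired 0.441), and lost the paired call without pair 2 (0.0604) or pair 4 (0.0564). Nfkb1, the p105 and p50 precursor gene, averaged 2980 ± 545 in Cre and 4317 ± 593 in GFP, a log2 change of -0.54 (paired adjusted p = 1.1e-05, unpaired 0.119). Vcam1, another adhesion molecule, had a log2 change of -0.30 (paired adjusted p = 0.00190, unpaired 0.574). Rel had a log2 change of -0.28 (paired adjusted p = 0.0438, unpaired 0.485), with -0.67, -0.087, -0.21 and -0.17 in pairs 1 to 4. Its paired call was lost in 5 of 11 alternatives. Adjusted p was 0.192, 0.0910 and 0.0722 without pair 1, 3 or 4, 0.0663 with no filter and 0.0522 after upper quartile rescaling. The chemokine and cytokine genes Cxcl1, Ccl2, Ccl7 and Il6 fell under the filter.

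**Figure D5:**
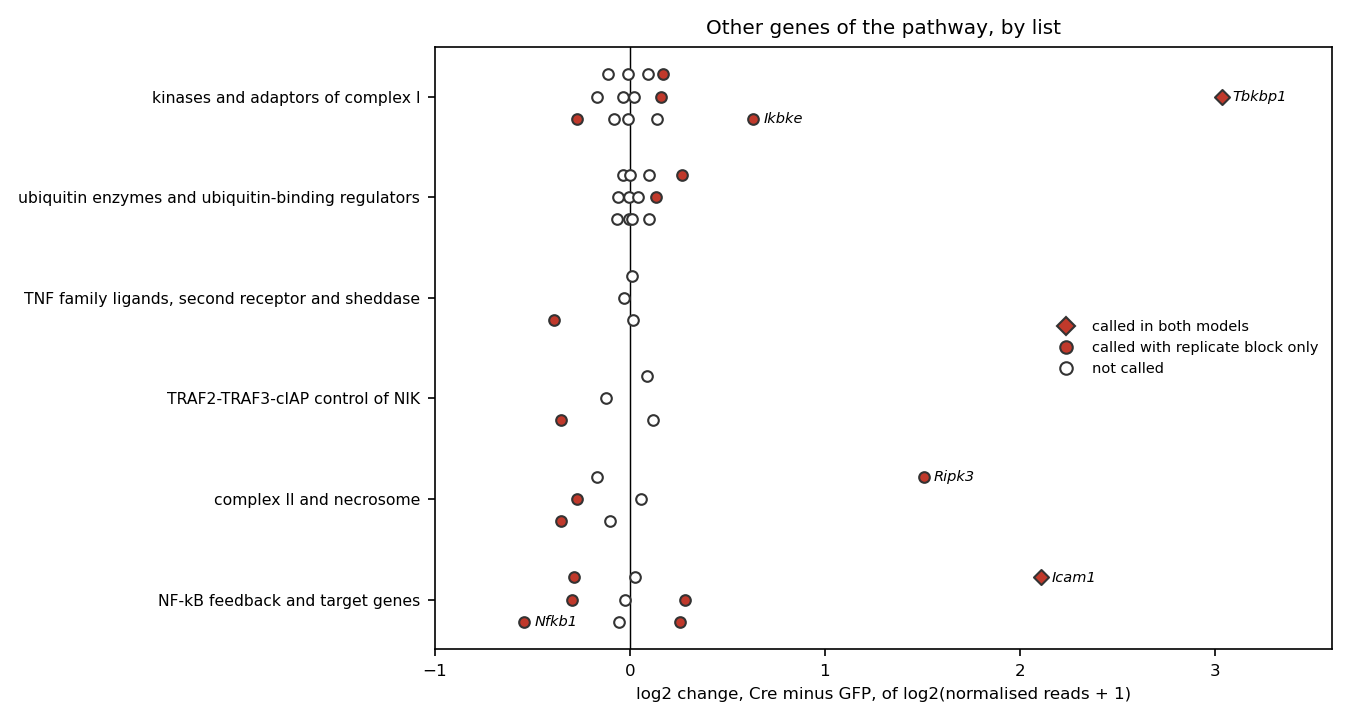
Log2 change, Cre minus GFP (x axis), of the other pathway genes that passed the filter, 1 line of points per list. Diamonds mark genes called in both models, filled circles those called in the paired model, and open circles those not called. Tbkbp1 at 3.04 and Icam1 at 2.11 lie far to the right of their lists, and most points lie near 0.

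Some markers of other cell types moved with Cre as well, and others of the same lists did not. The summed level of 5 pericyte and smooth muscle markers was 56057 to 87811 normalised reads in Cre and 24849 to 45078 in GFP. Myh11 stood at 9 or fewer in every library. Rgs5, called without the block, averaged 36372 in Cre and 8646 in GFP. Acta2 and Pdgfrb were called in neither model, at log2 changes of 0.0068 and 0.39 (paired adjusted p = 0.948 and 0.129). The 4 fibro-adipogenic markers with values summed to 616 to 767 in Cre and 179 to 329 in GFP, with Dcn at 22 or fewer. Ly6a, called without the block, averaged 441 in Cre and 89.8 in GFP. Pdgfra averaged 122 in Cre and 119 in GFP and was called in neither model. Blood markers summed to 122 to 455 in Cre and 51 to 278 in GFP, mostly from Cd68, with Itgam at 7 or fewer in Cre and 4 or fewer in GFP. Endothelial markers summed to 276 to 408 in Cre and 141 to 182 in GFP, with Cdh5 at 9 or fewer, and Schwann markers to 67 to 77 in Cre and 37 to 110 in GFP. Kdr, under the filter, had 46, 19, 27 and 14 in Cre, against 14, 6, 2 and 4 in GFP. Csf1r, a blood marker under the filter, had 59, 33, 21 and 16 in Cre, against 35, 23, 10 and 7 in GFP. Of the endothelial markers tested, Tek rose in the paired model and Pecam1 was called in neither model. In the paired model 2 of 4 pericyte, 2 of 3 fibro-adipogenic, 1 of 1 blood and 1 of 2 endothelial markers tested rose, where 22.2% of all genes were called higher. None of the tested markers of these lists fell, where 21.7% of all genes were called lower. Ptprc, Adgre1, Cd3e, Tie1, Lum and Sox10 were not analysed here. The part of cells with these markers in the changes of Birc3, Traf2, Rbck1 and Rnf31 was not tested.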

How the data were processed

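RNA sequencing of 8 libraries, 4 Cre and 4 GFP, was used, with groups and replicate numbers taken from the sample titles. The submitters' processing notes name STAR 2.5.3a, featureCounts 1.5.3 from Subread, DESeq, and the builds mm10 and GRCm38, and the libraries were stranded per the labels' protocols. Neither the annotation release nor the strand setting of the counting is given in the sources used here. The authors deposited scaled and rounded counts, treated as a score because they are not raw reads, and their scaling was kept. Original depth was estimated from gaps in the low values. Intervals without the block cover the spread between libraries. Paired intervals cover only the spread of the differences within pairs, not that between replicates. Reads are not independent molecules.

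Genes at 1 CPM or more in at least 4 libraries were tested on log2(value + 1), a scale that understates the fold of weakly expressed genes. The test was limma-trend (limma 3.58.1, R 4.3.3), two-sided, with Benjamini-Hochberg adjustment over all 12910 genes and a threshold of 0.05. Intervals of 95% were not adjusted. The model had group only. The labels do not state a pairing. For deviations from the group means, the correlation was 0.820 to 0.908 in the 4 pairs of equal number and -0.597 to 0.477 in the other 12 pairs. The data, not the labels, are thus the ground for pairing by number, and the replicate block is given beside each result it changes. Replicates differed well beyond counting noise (chi-square over its degrees of freedom, 23.4 to 132), so no library was a copy of another. Replicates 2 and 3 were much more alike than the rest, at 26.3 in Cre and 23.4 in GFP, where all others gave 79.5 or more.

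Gene models came from GENCODE M21 on GRCm38, which held 99.8% of the genes, with identical coordinates for 74.4%. Coordinates of genes are those of the table, and promoter sequences are from RefSeq GRCm38.p6. Tables and figures were made with pandas 2.3.3, numpy 2.4.6 and matplotlib 3.10.9 under Python 3.11.15. The limma-trend model, without and with the block, and the depth estimate were tested on simulated data, and the other statistics were not. The members, the lists and the ratio of Birc3 to Birc2 were chosen with earlier results of these data known. The text names all members, and from each list the genes called without the block, then up to 4 with the smallest paired p, all of complex II, and the 3 genes most like the member with the largest change. Bcl3, Itch, Tnip1 and Tnip2 were named outside this rule. Alternatives were no filter, a filter at 5 CPM, pseudocounts of 0.5 and 10, equal totals, upper quartile, voom, the block, and each library or pair left out.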

Additional observations from a re-analysis of the deposited data

Results flagged for a closer look

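Of 78 groups of 4 libraries examined among the named genes and ratios, 11 had a lone library whose gap to its neighbour was, relative to the group's range, above Dixon's 95% critical value. Chance gives about 1 in 20 such groups, and same-numbered libraries are not independent, so no further weight is given to the number. Among the complex I genes, Traf2 was lowest in Cre library 1, at 640 normalised reads, while the ratio of Birc3 to Birc2 was highest in the same library, at 0.248. Cre library 1 was also the highest Cre library for Ikbke, at 273, and for Chuk, at 3184. GFP library 1 was the highest GFP library for Ripk1, at 1914, and the lowest for Map3k14, at 617, and for Rel, at 316. Replicate 4 stood highest for Nfkb1 in both groups, at 3793 in Cre and 5194 in GFP. Cre library 4 was the highest Cre library for Nfkb2, at 2055, and for Vcam1, at 4528.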

How the results depend on the processing

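The replicate block moved the calls most. It gave 5665 genes in place of 140, 4 complex I genes in place of 0 and 17 pathway genes in place of 2, and Traf2 and Birc3 kept the paired call under every alternative run in which they were tested. Without the block, a filter at 5 CPM gave 85 genes and 0 pathway genes, and leaving out a library gave 11 to 58 genes, 0 complex I genes and 1 pathway gene. With the block, leaving out a pair gave 4338 to 5013 genes, 2 to 3 complex I genes and 11 to 15 pathway genes. The Cre minus GFP difference in the log2 ratio of Birc3 to Birc2 ran from 0.48 to 0.90 with a library left out. Changes near 0 turned sign. Equal totals, without and with the block, gave -0.013 for Birc2, -0.0036 for Tnfrsf12a and -0.013 for Adam17. Voom gave -0.012, -0.0031 and -0.012 without the block and -0.011, -0.0033 and -0.012 with it. Upper quartile rescaling gave 0.031 for Sharpin and 0.0053 for Tnfrsf1b in both models. With a library left out, Birc2 ran from -0.051 to 0.080, Cyld from -0.044 to 0.19, Tnfaip3 from -0.34 to 0.11, Sharpin from -0.043 to 0.048, Tnfrsf12a from -0.077 to 0.10, Tnfrsf1b from -0.15 to 0.067, Adam17 from -0.024 to 0.060, Mlkl from -0.067 to 0.19 and Cflar from -0.18 to 0.031. With a pair left out, Birc2 ran from -0.055 to 0.050, Cyld from -0.00077 to 0.088, Sharpin from -0.030 to 0.049, Tnfrsf12a from -0.0082 to 0.047, Tnfrsf1b from -0.069 to 0.043, Adam17 from -0.010 to 0.028 and Mlkl from -0.0058 to 0.13. Depth limits Icam1, Tbkbp1 and Tnfsf12 most among the called genes named from the pathway lists, and Birc3 among the complex I genes, by an SE of 0.104 to 0.245 from counting alone.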
